A study of Mus musculus and Acomys cahirinus with 25 samples.

Results

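Gap junction connexins were followed through mouse wounds as 4 genes, Gja1, Gjb2, Gjb5 and Gjb6, taken by symbol as 4 of the 24500 genes counted in each of 25 RNA-seq libraries. All laboratory mouse wounds were from PWD14 (post-wound day 14). These libraries were 2 of wild-type epidermis from the wound center, 2 of wild-type epidermis from the wound margin, 5 of wild-type dermis from the center, 2 of wild-type dermis from the margin, and 2 of center dermis labelled KO, which the study names K14-Cre-Twist1. The spiny mouse (Acomys cahirinus, wild type) libraries came from whole dorsal wounds or unwounded skin. They were 6 of epidermis (1 on PWD0, 2 on PWD14, 2 on PWD21 and 1 on PWD28) and 6 of dermis (2 on PWD0, 1 on PWD14, 2 on PWD21 and 1 on PWD28). PWD0 was unwounded skin. The days are those of the labels, and a sample list of the study gives slightly different days for the later spiny mouse samples.

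C57BL/6J was the main laboratory strain, and the background of the K14-Cre-Twist1 cross was not given in the sources used here. Laboratory mice were wounded at 4 weeks of age by the methods and at 3 weeks by another passage of the study. The spiny mice were wounded at 8 weeks. In K14-Cre-Twist1 mice the keratin 14 promoter drives Cre in keratinocytes, so the floxed Twist1 is lost in the epidermis and not in the dermis that was sequenced. Their wild-type controls were Twist1+/+ mice. The epidermis of these mice was not analysed here. Layers were parted by hand, in the spiny mouse after a cold trypsin step, and the center of a laboratory mouse wound was a round punch with the rest taken as margin.

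Connexins are membrane proteins that assemble in rings of subunits, and the rings of neighbouring cells dock to form a channel that passes ions and small molecules from cell to cell. In skin, connexin 43 (Gja1) is the connexin of the lower epidermis and of dermal fibroblasts. Connexin 26 (Gjb2) and connexin 30 (Gjb6) belong to the beta subgroup, are low in the resting epidermis between hair follicles and are known to rise in hyperproliferative or wounded epidermis. Gjb5 encodes a further beta connexin of stratified epithelium.

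The 4 promoters are printed because the genes fell into different patterns across layers and days, and a reader may wish to look for shared letters. Each run is 300 bases of RefSeq sequence on GRCm38.p6, from 250 bases before the gene's start to 50 after it, 5′ to 3′ on the gene's strand. Capitals mark matches, on either strand, to the AP-1 letters TGANTCA, the GC-box letters GGGCGG or the TATA-box letters TATAAA.
Gja1 (+ strand, chr10:56377050-56377349): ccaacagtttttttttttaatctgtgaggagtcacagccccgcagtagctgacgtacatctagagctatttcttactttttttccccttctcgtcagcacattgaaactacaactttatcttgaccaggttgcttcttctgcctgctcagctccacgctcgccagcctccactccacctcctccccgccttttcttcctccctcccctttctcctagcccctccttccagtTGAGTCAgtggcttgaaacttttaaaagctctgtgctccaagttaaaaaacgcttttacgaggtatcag
Gjb2 (- strand, chr14:57104653-57104952): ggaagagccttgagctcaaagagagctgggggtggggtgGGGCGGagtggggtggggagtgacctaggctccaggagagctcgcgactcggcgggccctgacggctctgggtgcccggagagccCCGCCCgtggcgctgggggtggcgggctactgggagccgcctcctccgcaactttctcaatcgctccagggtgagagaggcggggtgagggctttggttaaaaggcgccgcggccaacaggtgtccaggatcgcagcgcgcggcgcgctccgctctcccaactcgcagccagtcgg
Gjb5 (- strand, chr4:127358115-127358414): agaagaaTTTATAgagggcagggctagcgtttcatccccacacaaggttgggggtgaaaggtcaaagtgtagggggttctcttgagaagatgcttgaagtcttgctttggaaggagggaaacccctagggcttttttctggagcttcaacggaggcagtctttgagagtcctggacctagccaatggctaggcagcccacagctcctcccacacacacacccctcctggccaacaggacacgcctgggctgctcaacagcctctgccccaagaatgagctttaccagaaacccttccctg
Gjb6 (- strand, chr14:57133562-57133861): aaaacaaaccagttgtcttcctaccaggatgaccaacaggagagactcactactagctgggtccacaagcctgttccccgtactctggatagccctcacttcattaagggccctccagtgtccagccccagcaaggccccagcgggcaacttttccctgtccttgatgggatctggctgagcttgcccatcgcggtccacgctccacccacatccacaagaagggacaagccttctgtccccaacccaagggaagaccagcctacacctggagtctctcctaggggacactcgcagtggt
Gja1 held 1 TGANTCA match, 19 bases before the start, and no other member held one. This motif was present in 7.81% of the 32851 RefSeq promoters of the same length. Gjb2 held 2 GGGCGG matches, found in 35.7% of promoters, and its 70.0% GC compares with a median of 52.7% over all promoters. Gjb5 held 1 TATAAA match on the opposite strand, 243 bases before the start, against 13.6% of promoters with any. Gjb6 held none of these 3 motifs. The E-box letters CANNTG were searched without regard to the other motifs and were not marked. They occurred once in Gja1, once in Gjb2, 2 times in Gjb6 and not in Gjb5, and were in 72.3% of promoters. In Gja1 and Gjb2 they lay 23 and 9 bases before the start. The Gja1 E-box overlaps the TGANTCA match, since its last letters, TG, are the first letters of that match. These matches describe letters only.

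Gja1 lies at chr10:56377300-56390419. Gjb2 (chr14:57098602-57104702) and Gjb6 (chr14:57123301-57133611) are neighbours on the same strand, 18599 bases apart. Gjb5 (chr4:127354809-127358164) lies apart from both. The start of Gjb2 overlaps Gm32912, an RNA gene that had no line in the count files, so reads from the shared bases cannot be assigned between them.

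Depth was 19413261 to 86532134 reads on genes per laboratory mouse library and 5669760 to 34751956 per spiny mouse library. A floor of 3 counts was at most 0.155 CPM (counts per 1000000 reads on genes) in laboratory mouse and at most 0.529 CPM in spiny mouse libraries, and it covers counting error only. The layers matched their fibroblast markers, while keratinocyte genes in some dermis libraries came near the epidermis values. The 15 dermal fibroblast genes summed to 595 to 6799 CPM in epidermis against 70900 to 180600 CPM in dermis over both species, and the 6 basal keratinocyte genes to 9885 to 56870 CPM in epidermis. In dermis the basal keratinocyte genes summed to 32.6 to 9727 CPM. The 2 PWD0 dermis libraries of the spiny mouse held 9727 and 5581 CPM of them. Wound-activated keratins summed to 16080 and 9549 CPM in these 2 libraries, above the 7453 CPM of PWD0 epidermis. Among the laboratory mouse dermis libraries 1 stood apart. K14-Cre-Twist1 dermis replicate 2 held 8433 CPM of basal and 30250 CPM of suprabasal keratinocyte genes. The other center dermis libraries held at most 640 and 401 CPM. Twist1 was at 73.4 and 44.0 CPM in the K14-Cre-Twist1 dermis libraries and between 36.3 and 159 CPM in the 5 wild-type center dermis libraries, which does not check a deletion made in the epidermis. Nothing in the labels says which libraries of different groups came from 1 animal, or that libraries of a group came from different animals. The study describes its bulk RNA-seq replicates as independent. The p-values measure the spread between these libraries.

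The first question was how the connexins divide between the layers of the laboratory mouse wound. Gja1 stood at 2106 and 2213 CPM in center epidermis and at 493, 442, 182, 244 and 198 CPM in the 5 wild-type center dermis libraries. Gjb2 stood at 1666 and 2206 CPM in center epidermis against 4.21, 0.0515, 0, 0.907 and 0 CPM in center dermis. In 3 of those 5 dermis libraries Gjb2 was thus at or under the floor of 3 counts, while Gja1 was well above it in all. Gjb5 stood at 196 and 175 CPM in center epidermis against 0, 17.1, 18.2, 4.08 and 2.09 CPM in center dermis. Gjb6 stood at 252 and 293 CPM in center epidermis against 0, 5.15, 0, 0 and 0.0380 CPM in center dermis. The layers did not overlap for any member, but the share of all genes without overlap was not counted. Connexin 43 was therefore the one member with a large signal in both layers, Gjb2 and Gjb6 were at or near the floor in most center dermis libraries, and Gjb5 was low there but above the floor in 4 of 5.

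All 4 members passed in this layer comparison by the quasi-likelihood test of edgeR with p-values adjusted after Benjamini and Hochberg (FDR), each higher in epidermis, against 51.8% of the 15017 genes tested that were called in either direction. The log2 fold change of epidermis over dermis was 3.52 ± 0.39 (SE) for Gja1 (FDR = 6.83e-05). It was 11.63 ± 1.18 for Gjb2 (FDR = 2.51e-05), where the size of the estimate depends on dermis libraries without reads. It was 5.21 ± 1.0 for Gjb5 (FDR = 0.00194) and 8.92 ± 1.27 for Gjb6 (FDR = 0.000194). In bulk tissue, fewer cells of a type and less RNA per cell cannot be told apart. The epidermis libraries were paired-end and the dermis libraries single-end, so layer and read type cannot be told apart either. DESeq2 gave no adjusted p for Gjb2 and Gjb6 here.

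At the wound margin each member was again higher in epidermis, with smaller gaps than at the center. Gja1 stood at 1856 and 1131 CPM in margin epidermis and at 682 and 404 CPM in margin dermis. Gjb2 stood at 696 and 347 CPM in margin epidermis and at 28.8 and 29.9 CPM in margin dermis. These dermis values were above every wild-type center dermis value of Gjb2. Gjb5 stood at 84.0 and 177 CPM in margin epidermis and at 12.9 and 18.1 CPM in margin dermis. Gjb6 stood at 152 and 64.8 CPM in margin epidermis and at 3.02 and 4.28 CPM in margin dermis. Again no member's layers overlapped, with the share of all genes not counted. All 4 members were called higher in epidermis, against 47.7% of 14964 genes called in either direction. Log2 fold changes were 2.30 ± 0.53 for Gja1 (FDR = 0.00501), 5.01 ± 0.48 for Gjb2 (FDR = 2.47e-05), 3.89 ± 0.42 for Gjb5 (FDR = 4.59e-05) and 5.76 ± 0.55 for Gjb6 (FDR = 2.39e-05). Without margin dermis replicate 2, the FDR of Gja1 was 0.0758.

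**Figure D1:**
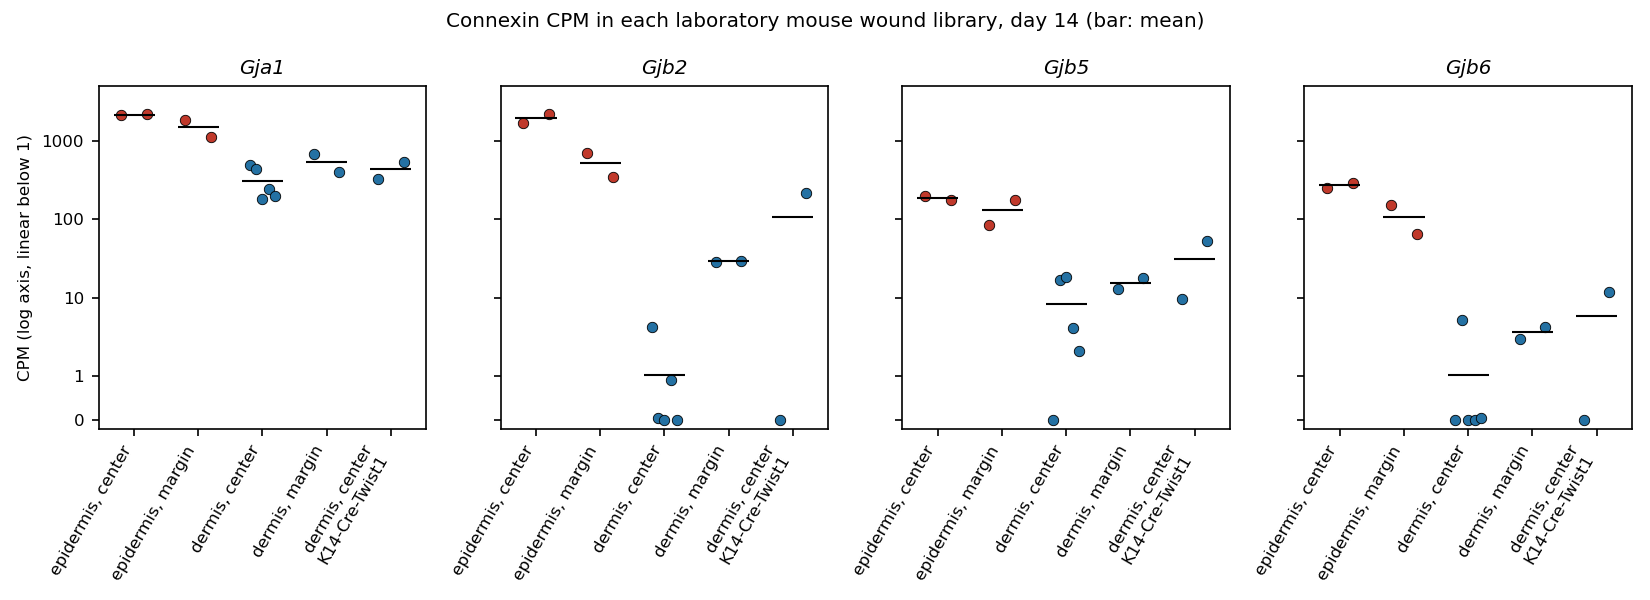
CPM of the 4 connexins in each of the 13 laboratory mouse libraries, on a log axis that is linear below 1 CPM, with epidermis in red, dermis in blue and a bar at the mean of each group. Gja1 stayed between 182 and 682 CPM in dermis, whereas Gjb2 and Gjb6 were at 0 in several dermis libraries and Gjb2 reached 215 CPM in 1 K14-Cre-Twist1 library.

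The second question was whether connexins differ between the wound center, where new hair follicles form in laboratory mice, and the margin. In epidermis, both center libraries were above both margin libraries for Gja1, Gjb2 and Gjb6, and the groups overlapped for Gjb5. The share of all genes tested that separate in this way was not counted, so the separation only describes the members. None of the 4 members was called at an FDR under 0.05 by edgeR's quasi-likelihood test, against 1.24% of 14165 genes called, while 2 of the 4 had an unadjusted p under 0.05. The log2 fold change of center over margin was 1.77 ± 0.44 for Gjb2 (unadjusted p = 0.00707, FDR = 0.112 by edgeR) and 1.21 ± 0.45 for Gjb6 (unadjusted p = 0.0368, FDR = 0.186 by edgeR). For Gja1 it was 0.41 ± 0.35 (FDR = 0.509) and for Gjb5 0.42 ± 0.33 (FDR = 0.474). Gjb2 was called by edgeR's likelihood ratio test (FDR = 0.0041) and by DESeq2 (FDR = 0.000563). The margin libraries differed from each other, with Gjb2 at 696 and 347 CPM. Fits without 1 library had 1 residual degree of freedom and a single library in a group, so only their log2 values are given. Over the 4 such fits these values ran from 1.33 to 2.45 for Gjb2 and from 0.69 to 2.04 for Gjb6. They ran from 0.07 to 0.90 for Gja1 (0.90 without margin replicate 1) and from 0.04 to 0.99 for Gjb5 (0.99 without margin replicate 2). The summed CPM of dermal fibroblast genes was 5614 to 6799 in center epidermis and 903 to 2557 in margin epidermis, and that of wound-activated keratins 12050 to 17490 against 5247 to 9235. Their part in these values was not tested.

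In dermis the center and margin were compared in the 2 center libraries that the study set beside the margin libraries. Gjb2 was at 4.21 and 0.0515 CPM in this center pair against 28.8 and 29.9 CPM in the margin, without overlap. Gja1 overlapped, with 493 and 442 CPM in the center against 682 and 404 CPM in the margin. Gjb5 and Gjb6 each had 1 center library at 0 and the other at 17.1 and 5.15 CPM, within or above their margin values. No member was called, against 0.850% of 14698 genes, and 1 of 4 had an unadjusted p under 0.05. The log2 fold change of center over margin was -3.60 ± 0.73 for Gjb2 (unadjusted p = 0.000477, FDR = 0.0552 by edgeR), -0.13 ± 0.26 for Gja1 (FDR = 0.87), -0.85 ± 0.87 for Gjb5 (FDR = 0.718) and -0.50 ± 1.10 for Gjb6 (FDR = 0.891). DESeq2 called Gjb2 (FDR = 0.0411), and so did the fit with all 5 wild-type center libraries (log2 fold change -4.74, FDR = 0.00302). Without center replicate 1 the Gjb2 value was -8.95 (FDR = 0.00594), and without center replicate 2 it was -2.67 (FDR = 0.0341) with Gjb5 then called too (-11.40, FDR = 0.0309). The basal keratinocyte genes summed to 419 and 102 CPM in these center libraries and to 773 and 1287 CPM in the margin libraries. The hair shaft and inner root sheath genes summed to 936 to 980 CPM in margin dermis and to at most 10.6 CPM in center dermis, with all 15 at 0 in at least 1 center library. Their part in the Gjb2 values was not tested.

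Connexin 26 thus had center-to-margin values of opposite sign in the layers, and the difference itself was tested as an interaction in the 8 libraries. The log2 center-over-margin value of Gjb2 was larger in epidermis than in dermis by 5.54 ± 0.89 (FDR = 0.00729). It was the 1 member of 4 called, against 3.48% of 15531 genes, with 519 genes called higher and 21 lower. In the same interaction 3 of 4 wound-activated keratins, 4 of 9 suprabasal and 1 of 6 basal keratinocyte genes tested were called, all higher. The median values of these lists were 3.5, 3.68 and 2.52, and their part in the Gjb2 value was not tested. The median over all genes tested was 0.31, and 4 of 4 members had positive values, with 0.70 ± 0.53 for Gja1 (FDR = 0.587), 1.39 ± 1.14 for Gjb5 (FDR = 0.623) and 1.85 ± 1.05 for Gjb6 (FDR = 0.445). By DESeq2 the FDR of Gjb2 was 0.118, by the edgeR 3 form of the quasi-likelihood estimate it was 0.105, and without margin dermis replicate 2 it was 0.0546. Without center dermis replicate 2, Gjb5 was called as well (12.18, FDR = 0.0237).

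The third question was whether dermis differs under an epidermis without Twist1. Gja1 stood at 327 and 539 CPM in the K14-Cre-Twist1 center dermis libraries against 182, 244 and 198 CPM in the 3 wild-type libraries that the study set beside them, without overlap. The other wild-type center dermis libraries stood at 493 and 442 CPM, above K14-Cre-Twist1 replicate 1, so that the groups overlapped over all 5. Gjb2 was at 0 CPM in K14-Cre-Twist1 replicate 1 and at 215 CPM in replicate 2. The wild-type values of Gjb2 were 0, 0.907 and 0 CPM, so that the mean of the K14-Cre-Twist1 group came from replicate 2, the library with the keratinocyte signal. Gjb5 stood at 9.79 and 52.5 CPM in K14-Cre-Twist1 dermis, against 18.2, 4.08 and 2.09 CPM. Gjb6 was at 0 and 11.8 CPM, against 0, 0 and 0.0380 CPM, and did not pass the filter on low counts.

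None of the 3 members tested was called by edgeR's quasi-likelihood test, against 0.0565% of 14163 genes (8 genes), while 2 of the 3 had an unadjusted p under 0.05. As a log2 fold change, K14-Cre-Twist1 over wild type was at 1.05 ± 0.26 for Gja1 (unadjusted p = 0.00342, FDR = 0.265 by edgeR), and DESeq2 gave an FDR of 0.00412. With all 5 wild-type libraries the Gja1 value was 0.50 ± 0.37 (FDR = 0.593). The value was 8.72 ± 2.07 for Gjb2 (FDR = 0.261) and -5.56 ± 9.90 (FDR = 0.922) without replicate 2. Gjb2 was called when all 5 wild-type libraries were used (6.76, FDR = 0.0113). For Gjb5 it was 1.85 ± 0.90 (FDR = 0.459). Without K14-Cre-Twist1 replicate 1, the fit rested on replicate 2 and gave 1.33 for Gja1, 9.72 for Gjb2 and 2.57 for Gjb5. With 1 library in that group, only the values are given. With the K14-Cre-Twist1 replicates this far apart, no difference in the beta connexins was detectable with the 3 wild-type libraries. Per 1000 CPM of the basal keratinocyte genes, Gjb2 in K14-Cre-Twist1 replicate 2 was at 25.5 CPM. This lies between the values of the 4 laboratory mouse epidermis libraries (19.7 to 108 CPM). On that scale Gjb5 (6.2 CPM) and Gjb6 (1.4 CPM) in this library lay below the epidermis values (8.5 to 10.5 and 3.68 to 15.4 CPM). The part of the keratinocyte signal in these values was not tested.

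In the spiny mouse, whose whole wound bed regenerates hair, reads were aligned to the mouse genome, so levels were compared within this species only. At PWD21 Gja1 stood at 929.9 and 1099 CPM in epidermis and at 823 and 711 CPM in dermis. Gjb2 stood at 367 and 317 CPM in epidermis and at 12.2 and 26.5 CPM in dermis. The layers were far apart for the beta connexins and closer for connexin 43. Gjb5 stood at 66.8 and 83.9 CPM in epidermis and at 1.69 and 1.73 CPM in dermis. Gjb6 stood at 107 and 111 CPM in epidermis and at 2.83 and 2.01 CPM in dermis. The layers did not overlap for any member, but the share of all genes without overlap was not counted here either. Of the 4 members, 3 were called higher in epidermis, against 62.9% of 14966 genes called in either direction. The log2 fold change of epidermis over dermis was 4.25 ± 0.41 for Gjb2 (FDR = 9.33e-05), 5.57 ± 0.25 for Gjb5 (FDR = 5.39e-06) and 5.63 ± 0.26 for Gjb6 (FDR = 5.75e-06). For Gja1 it was 0.52 ± 0.22 (FDR = 0.0735), and DESeq2 gave an FDR of 0.035.

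Over the days of healing, connexin 26 and connexin 30 stood well above their unwounded level in spiny mouse epidermis. Gjb2 stood at 20.8 CPM on PWD0, at 341 and 273 CPM on PWD14, at 367 and 317 CPM on PWD21 and at 229 CPM on PWD28. Gjb6 stood at 3.21 CPM on PWD0, at 105.5 and 88.7 CPM on PWD14, at 107 and 111 CPM on PWD21 and at 15.1 CPM on PWD28. Both were lowest in the single unwounded library, and Gjb6 was again low on PWD28 while Gjb2 was not. Gja1 stood at 725 CPM on PWD0, at 547 and 564 CPM on PWD14, at 929.9 and 1099 CPM on PWD21 and at 1073 CPM on PWD28. Gjb5 stood at 70.8 CPM on PWD0, at 40.0 and 35.7 CPM on PWD14, at 66.8 and 83.9 CPM on PWD21 and at 61.0 CPM on PWD28.

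At PWD14 against PWD0, 2 of 4 members were called, both higher, against 48.8% of 14336 genes. Gjb2 had a log2 fold change of 4.61 ± 0.30 (FDR = 4.95e-06), which ranked 40 by p among all genes tested. It was 5.64 ± 0.34 for Gjb6 (FDR = 4.25e-06), which ranked 23. For Gja1 it was 0.34 ± 0.20 (FDR = 0.177) and for Gjb5 -0.18 ± 0.23 (FDR = 0.538). With scaling by library size alone the median over all genes moved from -0.15 to -0.87, the value of Gja1 turned to -0.38 and Gjb5 was called lower (-0.91, FDR = 0.00822), so the direction of Gja1 and the call of Gjb5 depended on the scaling. PWD0 was 1 library, and its spread was taken to be that of PWD14 and PWD21.

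At PWD21 against the same PWD0 library, 3 of 4 members were called, all higher, against 28.7% of 14336 genes. On the log2 scale the rise was 4.23 ± 0.29 for Gjb2 (FDR = 1.99e-05, rank 19) and 5.27 ± 0.34 for Gjb6 (FDR = 1.47e-05, rank 11). Gja1 rose by 0.67 ± 0.20 (FDR = 0.029), a call that was lost with scaling by library size alone (0.48, FDR = 0.0987) and without either PWD21 library (FDR = 0.064 without replicate 1 and 0.161 without replicate 2). For Gjb5 the value was 0.27 ± 0.23 (FDR = 0.414). Between PWD14 and PWD21 no member was called by edgeR's quasi-likelihood test, against 46.6% of 12889 genes, while 3 of 4 had an unadjusted p under 0.05 and DESeq2 called none. The log2 fold change of PWD14 over PWD21 was 0.40 ± 0.18 for Gjb2 (FDR = 0.0891), 0.39 ± 0.17 for Gjb6 (FDR = 0.0841), -0.31 ± 0.15 for Gja1 (FDR = 0.114) and -0.44 ± 0.19 for Gjb5 (FDR = 0.0765). By library size alone, under which the median of all genes moved from -0.04 to -0.59, Gjb2 (-0.16) and Gjb6 (-0.17) turned sign and Gja1 (-0.87, FDR = 0.000977) and Gjb5 (-0.99, FDR = 0.0016) were called. Without PWD14 replicate 2 Gjb2 (0.58, FDR = 0.0159) and Gjb6 (0.54, FDR = 0.02) were called, and without PWD14 replicate 1 Gjb5 was (-0.57, FDR = 0.0334), as it was with at least 10 counts in every library (-0.50, FDR = 0.0446). Wound-activated keratins summed to 7453 CPM on PWD0, 33570 to 54420 CPM on PWD14, 9799 to 15970 CPM on PWD21 and 5504 CPM on PWD28. The basal keratinocyte genes summed to 19320 CPM on PWD0 and 28630 to 56870 CPM on PWD14 and PWD21. Per 1000 CPM of the basal genes, Gjb2 was at 1.08 CPM on PWD0, at 5.75 and 5.99 CPM on PWD14 and at 11.1 and 11.2 CPM on PWD21, so it was lowest on PWD0 on that scale too.

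**Figure D2:**
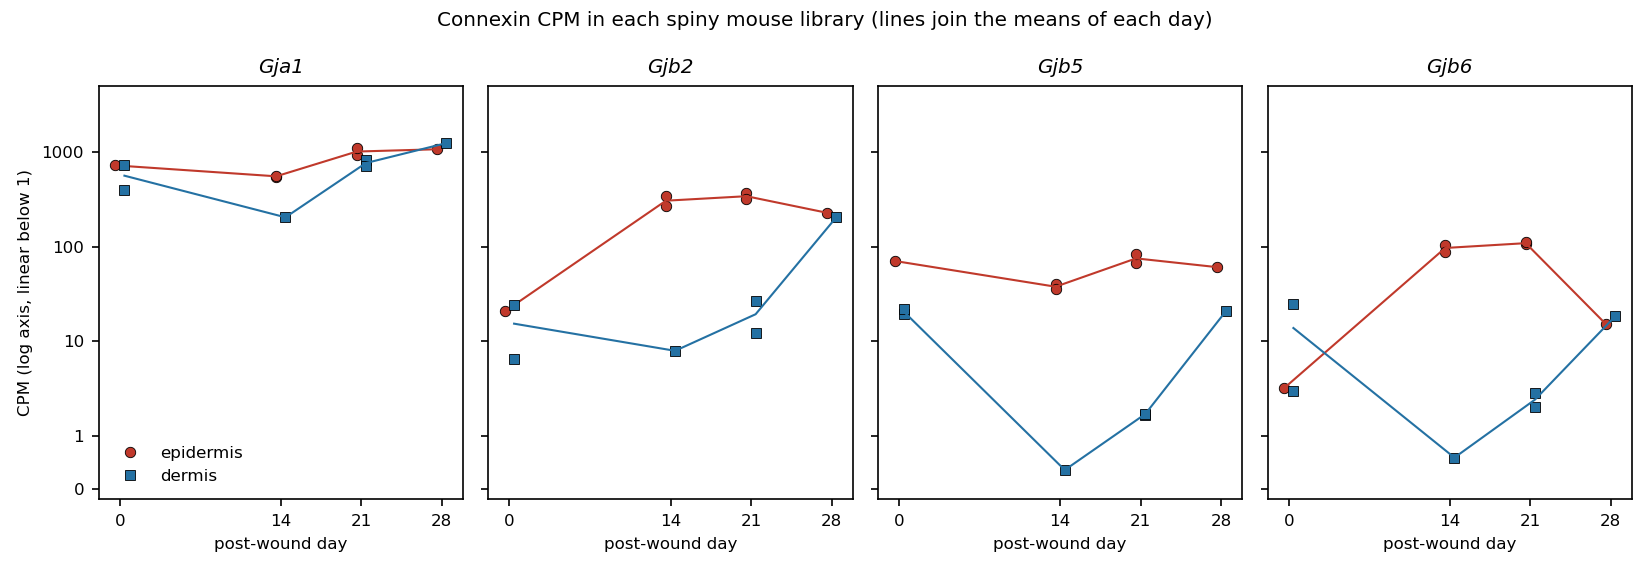
CPM of the 4 connexins in each spiny mouse library by post-wound day, on a log axis that is linear below 1 CPM, with epidermis as red circles, dermis as blue squares and lines through the means of each day. In epidermis Gjb2 and Gjb6 were lowest on PWD0 (20.8 and 3.21 CPM), and in dermis Gjb5 was lowest on PWD14 (0.353 CPM).

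Spiny mouse dermis went another way. Gjb5 stood at 19.6 and 21.8 CPM on PWD0, at 0.353 CPM (6 counts) on PWD14, at 1.69 and 1.73 CPM on PWD21 and at 20.8 CPM on PWD28. Gjb6 stood at 3.0 and 24.7 CPM on PWD0, at 0.589 CPM (10 counts) on PWD14, at 2.83 and 2.01 CPM on PWD21 and at 18.5 CPM on PWD28. Both had their lowest dermis values in the wounded tissue of PWD14 and PWD21, though PWD0 replicate 1 was near PWD21 for Gjb6. Gjb2 stood at 6.53 and 24.2 CPM on PWD0, at 7.95 CPM on PWD14, at 12.2 and 26.5 CPM on PWD21 and at 204 CPM on PWD28. Gja1 stood at 398 and 729.9 CPM on PWD0, at 205 CPM on PWD14, at 823 and 711 CPM on PWD21 and at 1247 CPM on PWD28.

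At PWD21 against PWD0 in dermis, 2 of 4 members were called, both lower, against 26.2% of 14481 genes. Gjb5 fell by 3.70 ± 0.39 on the log2 scale (FDR = 0.000641) and Gjb6 by 2.54 ± 0.76 (FDR = 0.0409). The Gjb6 call rested on PWD0 replicate 2, without which the value was -0.55 (FDR = 0.575), and was also lost without PWD21 replicate 1 (FDR = 0.145) or replicate 2 (FDR = 0.213). For Gja1 the log2 fold change was 0.37 ± 0.34 (FDR = 0.455) and for Gjb2 0.30 ± 0.57 (FDR = 0.723). At PWD14 against the same PWD0 libraries, 2 of 4 were called, both lower, against 18.5% of 15344 genes. Gjb5 fell by 5.62 ± 0.62 (FDR = 0.00117) and Gjb6 by 4.24 ± 1.17 (FDR = 0.0386), with FDRs of 0.061 and 0.0646 for Gjb6 without PWD21 replicate 1 or 2. Those libraries enter only the spread. The values were -1.20 ± 0.44 for Gja1 (FDR = 0.0913, against 0.0144 by DESeq2 and 0.0101 without PWD0 replicate 1) and -0.67 ± 0.70 for Gjb2 (FDR = 0.533). The basal keratinocyte genes summed to 5581 to 9727 CPM in PWD0 dermis, 1037 CPM on PWD14, 483 to 857 CPM on PWD21 and 1928 CPM on PWD28, with none of the 6 at 0. The hair shaft and inner root sheath genes summed to 106.5 and 13980 CPM in the PWD0 libraries and to 40640 CPM on PWD28. Per 1000 CPM of the basal genes, Gjb5 was at 2.01 and 3.90 CPM on PWD0 and at 3.49 and 2.01 CPM on PWD21, which overlap, while the PWD14 library was at 0.341 CPM. The part of keratinocyte and hair follicle RNA in the fall was not tested.

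The change from PWD0 to PWD21 differed between the layers for 3 of the 4 members in an interaction over all 12 libraries, against 25.0% of 15942 genes. The log2 change in epidermis exceeded that in dermis by 3.90 ± 0.81 for Gjb2 (FDR = 0.00751), 3.91 ± 0.40 for Gjb5 (FDR = 0.000301) and 7.81 ± 1.10 for Gjb6 (FDR = 0.00128). For Gja1 the difference was 0.25 ± 0.42 (FDR = 0.705). Within the layers, Gjb2 was called only in epidermis, Gjb5 only in dermis and Gjb6 in both, with opposite signs. This interaction shares its libraries with the PWD21 comparisons above and adds no independent evidence to them. Its PWD0 epidermis was a single library, which none of the alternatives could leave out, so they do not show how far the values depend on it. Under 18 alternatives the values ran from 2.78 to 4.62 for Gjb2 and from 5.75 to 8.59 for Gjb6, and under 17 from 3.68 to 4.04 for Gjb5, all with an FDR under 0.05.

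**Figure D3:**
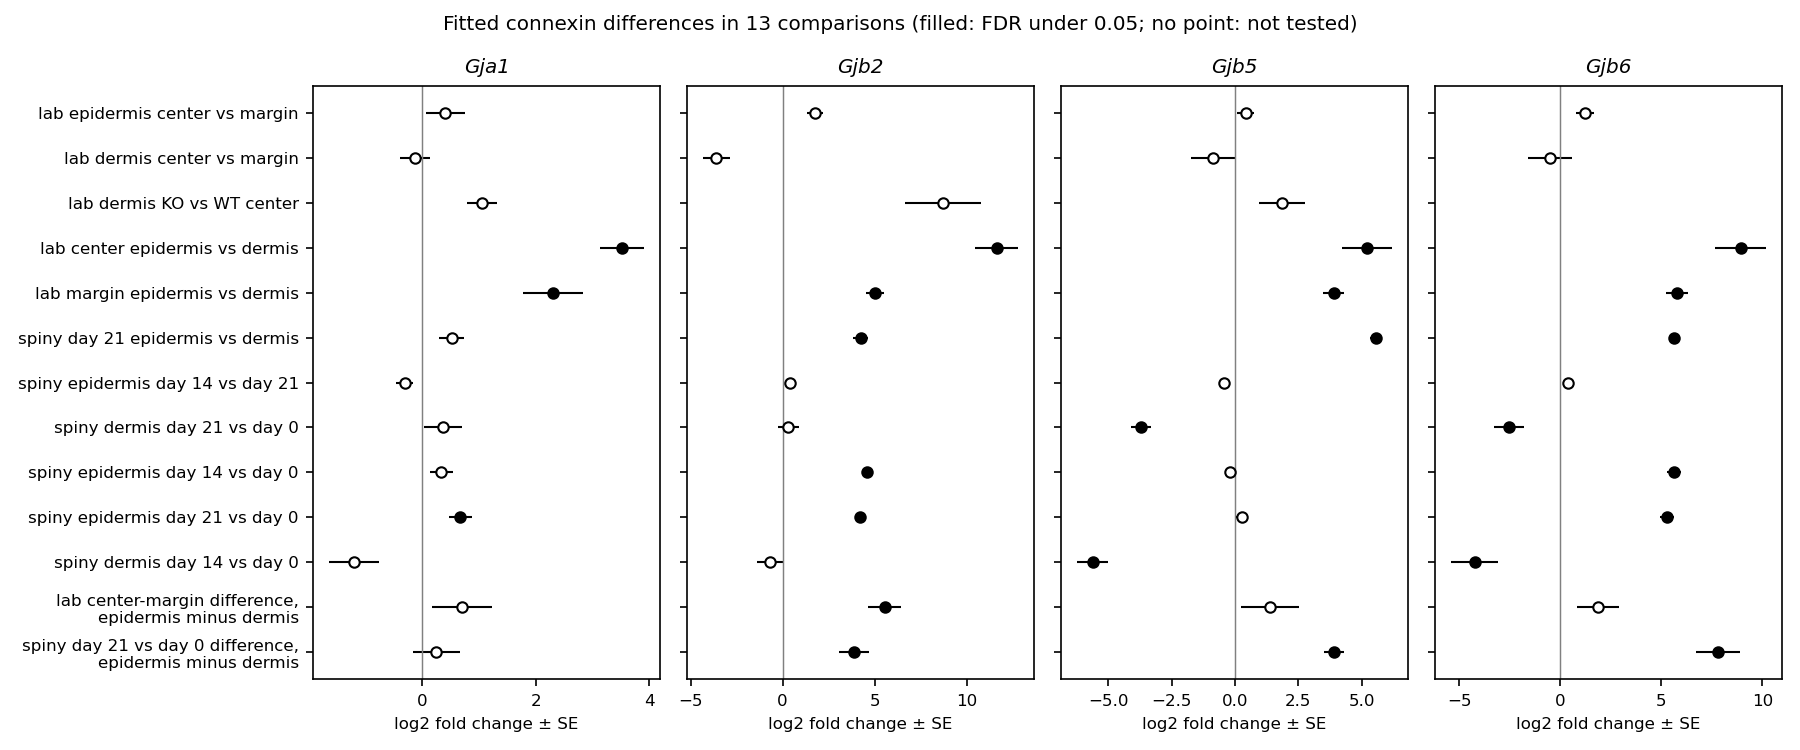
Log2 fold changes with 1 SE for each connexin in the 13 comparisons, filled where the FDR was under 0.05, with a panel and an x axis of its own for each gene. Gjb2 and Gjb6 were called in all 3 layer comparisons and in both epidermis comparisons with PWD0, while Gja1 was called in 2 layer comparisons and on PWD21 in epidermis.

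Between genes, levels were compared per kb of exon. In center epidermis of the laboratory mouse Gjb2 averaged 805 CPM per kb (692 to 917) and Gja1 703 CPM per kb (686 to 721), and these ranges overlapped. Gjb6 (129.5 CPM per kb, 119.8 to 139) and Gjb5 (108 CPM per kb, 101.5 to 114) were lower and did not overlap each other. At the margin Gja1 led without overlap, with 486 CPM per kb (368 to 604) against 216.5 for Gjb2 (144 to 289), while Gjb5 (48.8 to 102.6) and Gjb6 (30.8 to 72.2) overlapped. In spiny mouse epidermis Gja1 was the highest member on every day. At PWD0 Gjb5 (41.1 CPM per kb) came next, above Gjb2 (8.63) and Gjb6 (1.52). At PWD21 the order was Gja1 (330), Gjb2 (142), Gjb6 (51.9) and Gjb5 (43.8), with no overlap between neighbours in that order. The spiny mouse order may also carry differences in how well each gene's reads align to mouse sequence, which was not tested.

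The ratio of Gjb2 to Gjb6 reads, neighbours on chromosome 14, was 6.61 and 7.53 in center epidermis and 4.58 and 5.35 in margin epidermis of the laboratory mouse. In spiny mouse epidermis it was 6.47 on PWD0, 3.23 and 3.08 on PWD14, 3.44 and 2.84 on PWD21 and 15.2 on PWD28, so the pair kept a narrow range in wounds of PWD14 and PWD21 and stood apart on PWD28. The ratio of Gjb2 to Gjb5 reads was 0.293 in spiny mouse epidermis on PWD0 and between 3.75 and 8.52 in the 5 later libraries. Gja1 took 40.4% to 57.8% of all reads on the 20 connexin genes in laboratory mouse epidermis and 49.8% to 73.5% in its dermis. Gjb2 took 34.3% and 40.3% in center epidermis, 21.7% and 13.9% in margin epidermis, and at most 4.70% in wild-type laboratory mouse dermis. In spiny mouse epidermis its share was 1.70% on PWD0 and 13.6% to 23.9% later.

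**Figure D4:**
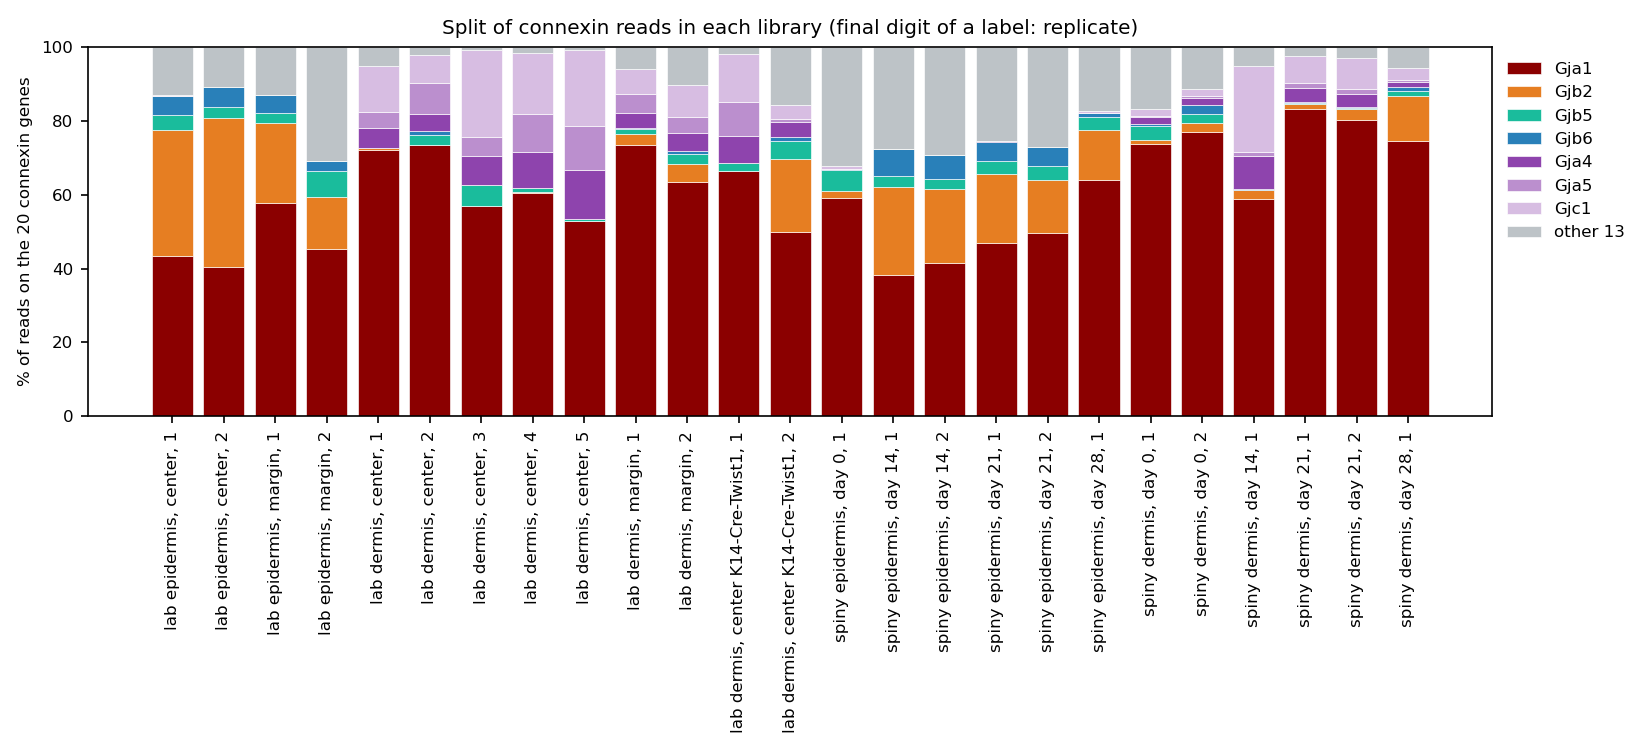
Share of reads on the 20 connexin genes taken by each gene in each of the 25 libraries, in percent and not corrected for length, with genes outside the 7 named drawn as 1 gray block. Gjb2 took 34.3% and 40.3% in laboratory mouse center epidermis and 1.70% in unwounded spiny mouse epidermis.

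Across libraries, the genes whose log2(CPM + 1) was most like each member were named by the smaller of its Pearson correlations over the 13 laboratory mouse and the 12 spiny mouse libraries, among 12615 genes. For Gja1 they were Akirin1 (0.892), Il13ra1 (0.886) and Aebp2 (0.865). For Gjb2 they were Pla2g4e (0.933), Endou (0.930) and Ly6d (0.914), and for Gjb6 Pla2g4e (0.944), Serpina9 (0.935) and Endou (0.918). For Gjb5 they were Aldh3b2 (0.945), Spint1 (0.943) and Plk3 (0.941). Among the members, Gjb2 and Gjb6 were most alike (0.888), and Gja1 and Gjb6 least (0.458, with 0.944 in the laboratory mouse alone). These libraries fall into layers, so the correlations describe the layer difference in part.

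Set against the basal keratinocyte genes over the 25 libraries, the top values of Gjb2, Gjb5 and Gjb6 were in epidermis libraries, though some dermis libraries exceeded unwounded spiny mouse epidermis for Gjb2 and Gjb6. Gja1 was at 182 CPM in the center dermis library with 32.6 CPM of the basal genes, and Gjb5 was at 18.2 CPM there while Gjb2 and Gjb6 were at 0. Unwounded spiny mouse epidermis held 19320 CPM of basal genes and only 20.8 CPM of Gjb2.

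**Figure D5:**
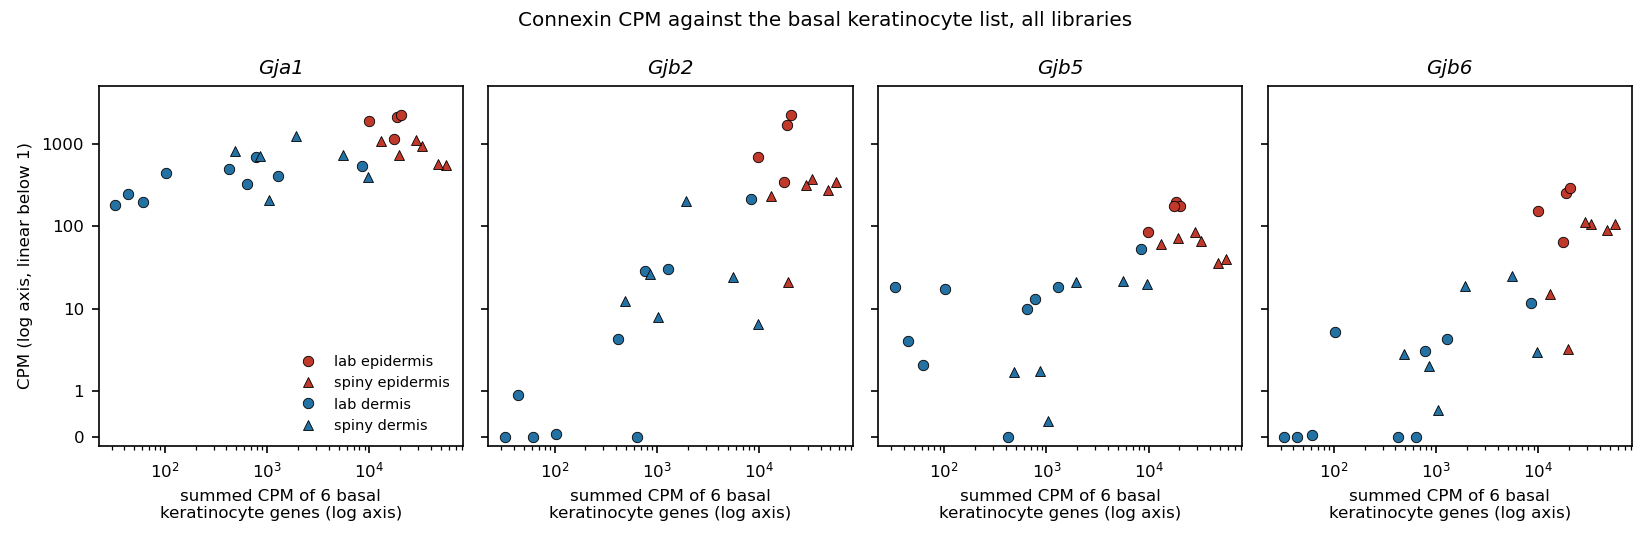
CPM of each connexin against the summed CPM of 6 basal keratinocyte genes in the 25 libraries, both on log axes (the y axis linear below 1 CPM), with epidermis red, dermis blue, laboratory mouse as circles and spiny mouse as triangles. Gja1 was at 182 CPM in the dermis library with the fewest basal keratinocyte reads (32.6 CPM), where Gjb2 was at 0.

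Of the other connexins, 12 are described, and since the rest of the family is left out, their counts in each direction are not those of the family. In center wounds of the laboratory mouse 4 of the 5 of them tested were called lower in epidermis, against 51.8% of all genes called in either direction. Gja4 (-5.06 ± 0.52, FDR = 4.55e-05) and Gja5 (-12.95 ± 1.14, FDR = 3.7e-05), connexins of the vessel wall, Gjc1 (-4.64 ± 0.47, FDR = 4.19e-05), known from smooth muscle, and Gjc3 (-10.93 ± 3.04, FDR = 0.0167) were lower. At the margin 1 of 6 tested was higher, Gjb1 (3.92 ± 1.11, FDR = 0.0136), and 4 were lower, against 47.7% of all genes. In the spiny mouse on PWD21, 1 of 5 was higher, Gja6 (1.56 ± 0.44, FDR = 0.0162), and 4 were lower, against 62.9% of all genes. The endothelial genes summed to 880 to 1856 CPM in laboratory mouse dermis and to 1.72 to 41.9 CPM in its epidermis, and in the margin libraries up to 5 of the 10 were at 0.

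Between center and margin none of the 6 of these genes tested was called in either layer of the laboratory mouse or in the interaction. The shares of all genes called were 1.24% in epidermis, 0.850% in dermis and 3.48% in the interaction. None of the 4 tested was called in K14-Cre-Twist1 dermis, against 0.0565% of all genes. In spiny mouse epidermis against PWD0, 48.8% of all genes were called on PWD14 and 28.7% on PWD21. In spiny mouse epidermis 1 of 2 tested was lower than on PWD0, Gjc1, at -2.15 ± 0.52 on PWD14 (FDR = 0.00616) and -1.85 ± 0.44 on PWD21 (FDR = 0.0106). In spiny mouse dermis on PWD21 against PWD0, 3 of these 5 genes tested were called, against 26.2% of all genes (18.5% on PWD14). Gja4 (1.22 ± 0.32, FDR = 0.0265), Gja5 (2.11 ± 0.52, FDR = 0.0202) and Gjc1 (2.25 ± 0.31, FDR = 0.002) rose there. The endothelial genes summed to 198 to 376 CPM in PWD0 dermis and to 614 to 792 CPM on PWD21, and their part in the vessel connexins was not tested. At PWD14 in dermis 2 of 6 were called, with Gja4 at 1.36 ± 0.37 (FDR = 0.0385) and Gjc1 at 2.70 ± 0.35 (FDR = 0.00201).

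Pannexins, which form channels of related shape in single membranes, were called in 4 comparisons, in which 46.6% to 62.9% of all genes were called. Panx1 stood at 145 CPM in spiny mouse epidermis on PWD0, at 17.5 and 32.6 CPM on PWD14 and at 76.3 and 95.2 CPM on PWD21. It was lower on PWD14 than on PWD0 (-1.81 ± 0.29, FDR = 0.000522) and than on PWD21 (-1.22 ± 0.25, FDR = 0.00233), and higher in epidermis than in dermis on PWD21 (2.44 ± 0.23, FDR = 8.36e-05). Panx3 was lower in epidermis than in dermis at the laboratory mouse margin (-9.94 ± 2.12, FDR = 0.00418) and in the spiny mouse on PWD21 (-9.01 ± 1.0, FDR = 0.000389), with epidermis at 0 and a dermis mean of at most 4.25 CPM in either.

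Of 12 genes whose proteins bind, traffic or phosphorylate connexin 43 that are reported here, all were tested in every comparison. In center wounds of the laboratory mouse 5 were higher and 4 lower in epidermis than in dermis, with the lowest FDR in Dbn1 (-4.04 ± 0.32, FDR = 1.18e-05), which encodes the actin-binding protein drebrin. The counts were 4 and 6 at the margin and 4 and 6 in the spiny mouse on PWD21. Of all genes tested, 51.8% at the center, 47.7% at the margin and 62.9% on PWD21 were called in these layer comparisons. None was called between center and margin in either layer or in K14-Cre-Twist1 dermis, where the lowest FDRs were 0.0604 (Src, center epidermis), 0.314 (Prkcd) and 0.48 (Cav1) by edgeR. In spiny mouse epidermis 2 were higher and 2 lower on PWD14 than on PWD0, against 48.8% of all genes called. None was higher and 2 were lower on PWD21 than on PWD0, against 28.7%. On PWD14 against PWD21, 5 were higher and 3 lower, against 46.6%. The shares of all genes called against PWD0 in spiny mouse dermis were 26.2% on PWD21 and 18.5% on PWD14. In spiny mouse dermis 3 rose and 1 fell by PWD21, and 2 rose and 1 fell by PWD14, with Dbn1 higher at both (2.21 ± 0.34, FDR = 0.00302 and 3.54 ± 0.39, FDR = 0.00116).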

How the data were processed

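Raw counts per gene symbol were deposited by the authors for 25 libraries, without normalization. By the study's methods the authors aligned all reads, those of the spiny mouse included, to mm10 with STAR and counted RefSeq genes with HTSeq (STAR 2.4.1d and HTSeq 0.6.0 in the submitters' processing notes, while the methods name a later STAR version), and the strand setting of the count was not given in the sources used here. The 5 summary lines of each file were left out. Levels are CPM over all 24500 genes. Tests used edgeR 4.0.16 in R 4.3.3 in 13 comparisons, with filterByExpr, TMM scaling, a prior count of 0.125, the quasi-likelihood F test, adjustment over all genes tested and a threshold of 0.05. SE is the log2 value divided by the root of F. Wild-type center dermis was split as in the study, and layer comparisons at the center used all 5 libraries. The test code was checked on simulated data.

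Alternatives were DESeq2 1.42.0, edgeR's likelihood ratio test, RLE scaling, library size alone, no filter, at least 10 counts in every library, other sample sets and leaving out each library. The edgeR 3 form of the quasi-likelihood estimate was chosen after seeing the data. The members and all gene lists were chosen with earlier results of these data known. Named singly were the members, other connexins and pannexins averaging 1 CPM or more in a compared group at an FDR under 0.05 (not all are printed), the partner of lowest FDR and the 3 genes most like each member. Exon lengths and promoters came from GENCODE vM21 and RefSeq. Replicate libraries differed beyond sampling noise in every pair (chi-square per degree of freedom at least 28.3). Some genes of the family lists are not reported here, and the list counts, which would differ with them, leave them out.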

Additional observations from a re-analysis of the deposited data

Results flagged for a closer look

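In the 5 wild-type center dermis libraries, 1 library lay far from the rest for 2 connexins, judged by its gap to the nearest library as a share of the group's range. The shares were 0.785 for Gjb2 in replicate 1 (4.21 CPM against at most 0.907 CPM) and 0.993 for Gjb6 in replicate 2 (5.15 CPM against at most 0.0380 CPM). For normally distributed values the limit used, 0.71, would mark about 1 group in 20 by chance. Values at or near 0, as here, are not of that kind, so the rate by chance is not known. The basal keratinocyte genes summed to 419 CPM in replicate 1 and 102 CPM in replicate 2, the 2 highest of the 5 libraries. Their part was not tested.

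Effects differed between the layers by an interaction test. The center-to-margin value in the laboratory mouse was larger in epidermis by 5.54 for Gjb2 on the log2 scale. Its FDR was 0.00729 by edgeR's quasi-likelihood test, where 3.48% of all genes were called, but 0.118 by DESeq2. The change from PWD0 to PWD21 in the spiny mouse was larger in epidermis by 3.90 for Gjb2, 3.91 for Gjb5 and 7.81 for Gjb6. In this spiny mouse test 25.0% of all genes were called, and PWD0 epidermis was a single library. For Gjc1 the difference was -4.17, with a rise in dermis and a fall in epidermis.

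The single PWD28 library of each spiny mouse layer entered no test of its own day and lay above the control level of PWD0 for several members. In epidermis Gja1 was at 1070 CPM, Gjb2 at 229 CPM and Gjb6 at 15.1 CPM. In dermis Gja1 was at 1250 CPM and Gjb2 at 204 CPM, above both PWD0 libraries. Gjb5 was below PWD0 in epidermis (61.0 against 70.8 CPM), and in dermis Gjb5 and Gjb6 lay between the PWD0 libraries. PWD0 epidermis was also a single library. The share of all genes above PWD0 was not counted, so these values only describe the members. The hair shaft and inner root sheath genes summed to 29040 CPM in epidermis and 40640 CPM in dermis on PWD28, and their part was not tested.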

How the results depend on the processing

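Of 370 alternatives to the members' tests other than leaving out a library, 352 kept the direction and the side of the threshold, and of 274 fits without 1 library 239 did. With library size alone, Gjb2 (-0.16) and Gjb6 (-0.17) turned sign between PWD14 and PWD21 in spiny mouse epidermis and Gja1 (-0.38) between PWD14 and PWD0. Counts of called genes moved with the tool. In laboratory mouse epidermis, center against margin, 176 became 1533 by the likelihood ratio test, 1511 by DESeq2 and 0 by the edgeR 3 estimate. In dermis 125 became 886, 738 and 54 by the same tools, and 323 with all 5 wild-type center libraries. For K14-Cre-Twist1 against wild type, 8 became 214, 787 and 2, 190 with all 5 wild-type libraries and 0 with at least 10 counts in every library. The laboratory mouse interaction went from 540 to 1485 by the likelihood ratio test, 1125 by DESeq2 and 204 with at least 10 counts, and PWD14 against PWD0 in spiny mouse dermis from 2838 to 4291 by the likelihood ratio test. The cause was not tested.

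Leaving out 1 library, the calls ran from 70 to 7405 for center against margin in epidermis (7405 without margin replicate 2, 5508 without margin replicate 1), 19 to 241 in dermis (19 without margin replicate 2), and 1 to 3353 for K14-Cre-Twist1 (3353 without its replicate 1, 27 without its replicate 2). They ran from 5054 to 7885 and from 4508 to 7623 for the layers at center and margin, and from 167 to 1343 for the interaction (1343 without epidermis margin replicate 2). In the spiny mouse they ran from 3470 to 6635 for PWD14 against PWD21 in epidermis, 2190 to 5547 for PWD21 against PWD0 in epidermis, 1311 to 5118 in dermis, 1888 to 4219 for PWD14 against PWD0 in dermis and 1976 to 4445 for the interaction. Member values that turned sign ran, for center against margin in dermis, from -0.49 to 0.34 for Gja1, -11.4 to 0.20 for Gjb5 and -9.31 to 0.56 for Gjb6. They ran from -5.56 to 9.72 for Gjb2 in K14-Cre-Twist1 dermis (9.72 without its replicate 1), -0.40 to 1.36 for Gjb2 in spiny mouse dermis on PWD21 (1.36, FDR = 0.0218 by edgeR, without PWD0 replicate 2), -1.27 to 0.45 for Gjb2 on PWD14, and -0.13 to 0.55 for Gja1 in the spiny mouse interaction.

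Library size alone also moved the split of genes called higher and lower, from 4024 and 3753 to 2304 and 5834 for layers at the center, from 3126 and 4015 to 1599 and 6192 at the margin, from 3011 and 2991 to 1335 and 5721 for PWD14 against PWD21 in spiny mouse epidermis, from 3255 and 3737 to 1661 and 6361 for PWD14 against PWD0 and from 1916 and 2194 to 1204 and 2700 for PWD21 against PWD0. In spiny mouse dermis it went from 1220 and 1618 to 874 and 1988 on PWD14, and in the interaction from 1959 and 2019 to 1447 and 2386.

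No paired analysis was possible because the labels give the libraries no replicate numbers. With 1 or 2 libraries in most groups, connexins near the floor in dermis could not be compared firmly, and Gjb5 and Gjb6 had 6 and 10 counts in spiny mouse dermis on PWD14.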
